A study of Homo sapiens with 12 samples.

Results

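RB1, CDKN2A, CDKN2B, NF1, HRAS, BRAF and PIK3CA are 7 genes that are altered in many cancers, and their polysome-associated RNA was followed across 3 triple-negative breast cancer (TNBC) cell lines. The 7 were taken by symbol out of 24559 gene symbols, and all 7 were among the 16538 genes that passed the filter on low counts. The filter keeps a gene that is well counted in at least 1 group, and CDKN2A and CDKN2B passed through BT549, since neither reached 20 counts in any other library. MDA-MB-231, SUM159 and BT549 are established lines, and each was compared with its own control, giving 6 groups of 2 libraries. The EV groups of MDA-MB-231 and SUM159 carried a non-silencing control in the GIPZ lentiviral vector and were selected with puromycin. MDA-MB-231 KD and SUM159 KD carried an shRNA to TRMT112 in the same vector. TRMT112 is a small cofactor that several RNA and protein methyltransferases need for their stability and activity. BT549 EV carried an empty pReceiver-M02 plasmid, BT549 OE carried the TRMT112 open reading frame in that plasmid, and both were selected with G418. MDA-MB-231 and SUM159 were grown in DMEM/F-12 with 5% serum (SUM159 also with insulin and hydrocortisone) and BT549 in RPMI medium with 10% serum. The line, its medium and, for BT549, its vector therefore cannot be told apart in comparisons between lines.

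By way of background, the 7 genes belong to routes that connect growth factor signals to the cell cycle. HRAS is a small GTPase that, when bound to GTP, activates kinases such as BRAF and also the lipid kinase whose catalytic subunit p110α is encoded by PIK3CA. NF1 encodes neurofibromin, which speeds the hydrolysis of GTP by RAS and so turns it off. RB1 encodes the retinoblastoma protein, which holds E2F transcription factors in check until cyclin-dependent kinases CDK4 and CDK6 phosphorylate it. CDKN2B encodes p15INK4b and CDKN2A encodes p16INK4a, and both of these proteins inhibit CDK4 and CDK6. CDKN2A also encodes ARF, a protein in another reading frame that binds MDM2.

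Sequences mattered for 2 of the results. The RNAs for p16INK4a and ARF share exon 2 of CDKN2A and differ in their first exon, exon 1α or exon 1β, so the first exon tells them apart. The coding part of each, read from GRCh38 on the minus strand at chr9:21974678-21974827 (150 bases) and chr9:21994139-21994331 (193 bases), is given 5′ to 3′ with the start codon in capitals.
CDKN2A exon 1α: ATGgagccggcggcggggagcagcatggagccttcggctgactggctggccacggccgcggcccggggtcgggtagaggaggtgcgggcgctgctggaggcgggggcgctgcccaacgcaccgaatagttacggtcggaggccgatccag
CDKN2A exon 1β: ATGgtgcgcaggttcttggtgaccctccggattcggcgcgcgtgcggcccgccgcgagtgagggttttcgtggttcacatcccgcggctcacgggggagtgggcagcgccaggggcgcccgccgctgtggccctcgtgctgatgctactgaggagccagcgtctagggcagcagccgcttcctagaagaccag

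For RB1, the annotated transcripts RB1-201 and RB1-208 have the same exons 1 and 2 and then part. RB1-201, the full-length mRNA of 27 exons with 928 codons before its stop, goes on to an exon 3 at chr13:48342599-48342714 on the plus strand. RB1-208 has 3 exons in all, and its last exon lies within what is intron 2 of RB1-201. Its coding bases at chr13:48333017-48333064 end the reading frame after 103 codons, with the stop codon in capitals.
RB1-201 exon 3: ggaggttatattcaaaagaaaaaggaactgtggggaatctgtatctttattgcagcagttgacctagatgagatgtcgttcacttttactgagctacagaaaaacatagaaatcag
RB1-208 exon 3: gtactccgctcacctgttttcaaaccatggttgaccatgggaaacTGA

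The libraries held 22954226 to 27434677 expected counts each, and replicates differed by a median of 0.081 to 0.099 on the log2 scale. TRMT112, the targeted gene, followed the labels: it fell from 169 ± 6.19 to 72.1 ± 2.42 counts per 1000000 (CPM, scaled by TMM, mean ± SD, n = 2) in MDA-MB-231, fell from 270 ± 6.91 to 159 ± 6.19 in SUM159 and rose from 129 ± 0.340 to 180 ± 0.9998 in BT549. Among markers of the labelled cells, ESR1 had no row, PGR reached at most 0.417 CPM and ERBB2 lay between 57.9 and 143 CPM. The epithelial keratins KRT8 and KRT18 stayed under 1 CPM in every BT549 library, against group means of 189 to 409 CPM in the other lines, and VIM lay between 704 and 1986 CPM in all 12. Markers of leukocytes, endothelium and monocytes had no row or at most 4.30 CPM. Only transcripts with counts in BT549 have a row in the table, so that for RB1 7 of 9 annotated transcripts, for NF1 32 of 39, for BRAF 20 of 21, for HRAS 9 of 10 and for PIK3CA 9 of 10 could be summed. All 14 transcripts of CDKN2A and all 3 of CDKN2B were present. Because polysomal RNA was sequenced without matched total RNA, a change in mRNA amount and a change in ribosome loading cannot be told apart, and neither can RNA per cell and the share of cells that hold it. CPM also gives a share of the counted RNA. The paper reports smaller polysome peaks with KD and larger ones with OE, and a change in total polysomal RNA does not show in CPM.

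**Figure D1:**
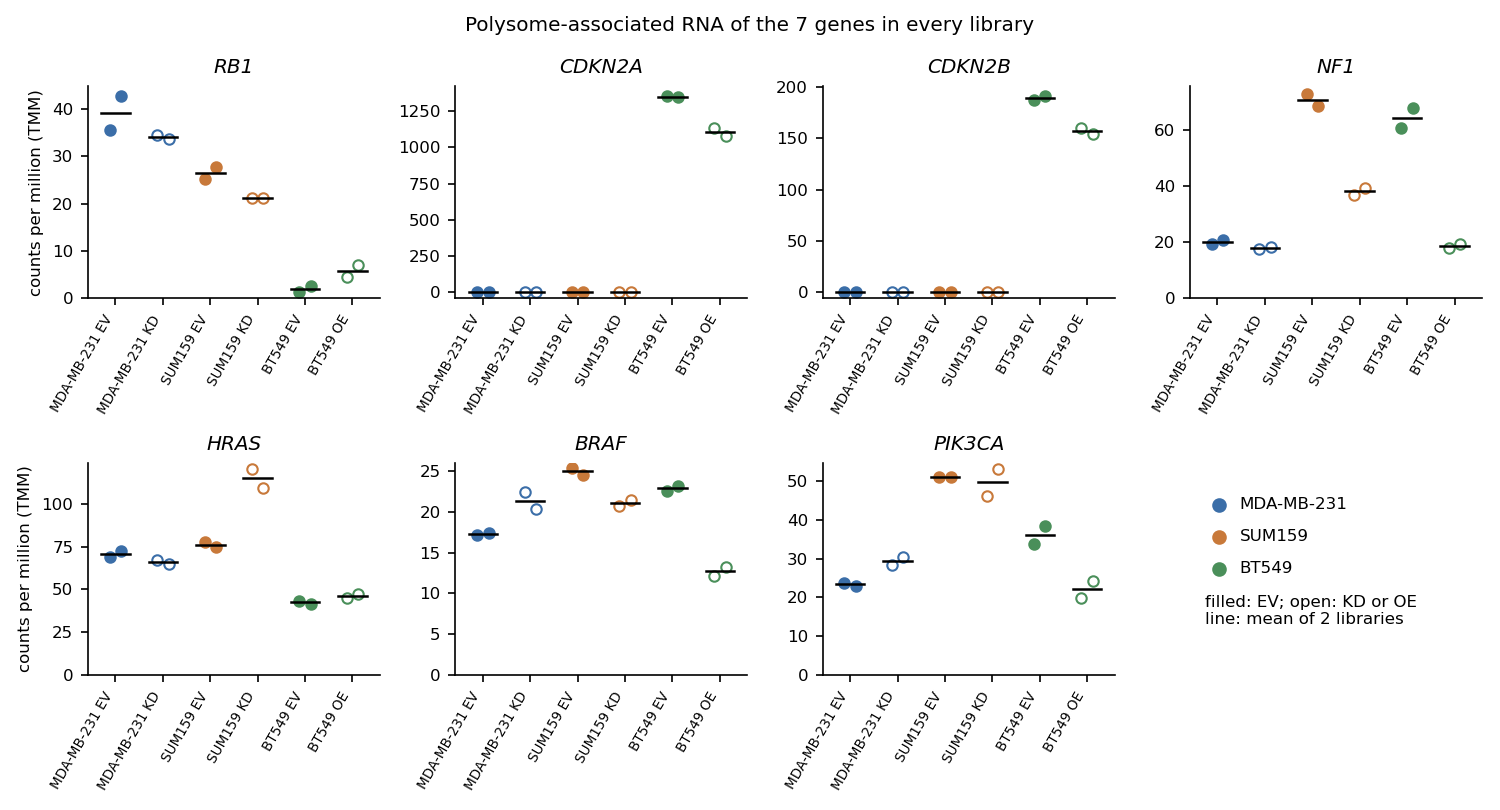
CPM (TMM-scaled, linear axes from 0) of the 7 genes in each of the 12 libraries, with EV libraries filled, KD or OE libraries open and the mean of each group as a line. CDKN2A and CDKN2B stood near 0 in MDA-MB-231 and SUM159, whereas RB1 was lowest in BT549.

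The EV groups compare the lines at rest, and the INK4 genes gave the widest contrast. CDKN2A had 0 counts in all 4 MDA-MB-231 libraries, 8 and 7 counts in SUM159 EV, and 29589 and 29012 counts in BT549 EV. BT549 EV stood far above the other lines with no overlap. Its mean of 1349 ± 8.07 CPM was at least 11603.5-fold that of MDA-MB-231 EV, taking 3 counts per library as the limit that a count of 0 allows. It was 12.04 above SUM159 EV on the log2 scale, and 11.94 to 12.14 with single libraries left out. The adjusted p was 2.14e-29 (edgeR quasi-likelihood test with Benjamini-Hochberg adjustment over all genes). CDKN2B had 0 counts in MDA-MB-231 EV, 5 and 2 in SUM159 EV, and 4089 and 4130 in BT549 EV. The mean of 189 ± 2.84 CPM in BT549 EV was at least 1628-fold that of MDA-MB-231 EV. The log2 difference from SUM159 EV was 10.28 (adjusted p = 1.92e-24), and 9.77 to 11.05 with single libraries left out. An SE is not given for these differences of CDKN2A and CDKN2B, since they rest on few counts in SUM159 EV. Both genes passed the filter on low counts through BT549. The adjusted p-values against SUM159 EV are therefore not independent evidence of a high level in BT549. SUM159 EV and MDA-MB-231 EV differed in both genes by the test (adjusted p = 9.45e-05 for CDKN2A and 0.00578 for CDKN2B), but against 0 counts this amounts to a ratio of at least 2.72 for CDKN2A, and without SUM159 EV replicate 1 the CDKN2B difference had an adjusted p of 0.0578. CDKN2A and CDKN2B are close paralogs, so with so few counts in SUM159 their division between the genes is uncertain.

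RB1 had the reverse order. Its level was 35.5 and 42.8 CPM in MDA-MB-231 EV, 25.1 and 27.7 CPM in SUM159 EV and 1.37 and 2.55 CPM in BT549 EV. The 3 groups did not overlap, and every pair of them differed by the test. BT549 EV was lower than MDA-MB-231 EV by a log2 difference of -4.32 (SE 0.17, adjusted p = 9.04e-17) and lower than SUM159 EV by -3.75 (SE 0.18, adjusted p = 5.15e-15). With single libraries left out these differences ran from -4.82 to -3.94 and from -4.26 to -3.37. SUM159 EV was lower than MDA-MB-231 EV by -0.57 (SE 0.11, adjusted p = 4.95e-05). What BT549 had was mostly the short transcript: RB1-208, the form with the early stop printed above, took 73.8% of the RB1 counts of BT549 EV and 0.1% or less in the other EV groups. Full-length RB1-201 had 0 and 13 counts in BT549 EV, against 854 and 1075 in MDA-MB-231 EV and 526 and 644 in SUM159 EV. With RB1-208 left out of the sum, a choice made after the data were seen, BT549 EV had 1 and 22 counts and lay 6.19 below MDA-MB-231 EV on the log2 scale (adjusted p = 1.95e-15).

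NF1, the negative regulator of RAS, was lower in MDA-MB-231 than in the other lines. It stood at 19.4 and 20.7 CPM in MDA-MB-231 EV, 72.9 and 68.5 CPM in SUM159 EV and 60.6 and 67.9 CPM in BT549 EV. SUM159 EV exceeded MDA-MB-231 EV by 1.82 on the log2 scale (SE 0.07, adjusted p = 6.10e-17) and BT549 EV exceeded it by 1.68 (SE 0.07, adjusted p = 2.59e-16). The step from SUM159 EV to BT549 EV was -0.14 (SE 0.06, adjusted p = 0.0435), close to the spread between libraries, and it lost the call with RLE size factors, with DESeq2 and when any of 5 single libraries was left out: without BT549 EV replicate 1 it was -0.06 (adjusted p = 0.489), without SUM159 EV replicate 1 -0.09 (0.284), without SUM159 KD replicate 2 -0.13 (0.0584), and without MDA-MB-231 KD replicate 1 or 2 -0.14 (0.0505 and 0.0516).

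The kinases and HRAS differed less between lines. PIK3CA was at 23.8 and 23.1 CPM in MDA-MB-231 EV, 51.1 and 51.1 CPM in SUM159 EV and 33.9 and 38.5 CPM in BT549 EV. No groups overlapped, with SUM159 above MDA-MB-231 by 1.13 on the log2 scale (SE 0.08, adjusted p = 1.43e-11) and BT549 between them, 0.63 above MDA-MB-231 (SE 0.09, adjusted p = 6.45e-07). BRAF was at 17.2 and 17.4 CPM in MDA-MB-231 EV, 25.4 and 24.6 CPM in SUM159 EV and 22.6 and 23.3 CPM in BT549 EV. In CPM MDA-MB-231 was the lowest, 0.53 under SUM159 on the log2 scale (SE 0.08, adjusted p = 2.28e-06) and 0.41 under BT549 (SE 0.08, adjusted p = 8.87e-05), although scaling by library size alone ended the second call (adjusted p = 0.306). Divided by transcript length, BRAF was instead highest in MDA-MB-231 EV among the EV groups, which was not tested. The BRAF difference between BT549 and SUM159 was not called (-0.12, interval of 2 SE from -0.28 to 0.03), but it was with library size alone (-0.34, adjusted p = 0.000517) and with protein-coding transcripts alone (-0.29, adjusted p = 0.00661). HRAS was at 68.8 and 72.6 CPM in MDA-MB-231 EV, 77.5 and 74.8 CPM in SUM159 EV and 43.4 and 41.7 CPM in BT549 EV. BT549 was the lowest, by -0.73 against MDA-MB-231 (SE 0.06, adjusted p = 3.85e-11) and by -0.84 against SUM159 (SE 0.06, adjusted p = 3.17e-12). Relative to the median of genes of similar length, HRAS was at -0.65 and -0.67 in these comparisons. The log2 difference of 0.11 between SUM159 and MDA-MB-231 in HRAS was not called (adjusted p = 0.0716, interval of 2 SE from 0.00 to 0.21), though it was without MDA-MB-231 EV replicate 2 (adjusted p = 0.0469).

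Most genes differed between these lines, and the 7 have to be read against that. Between SUM159 EV and MDA-MB-231 EV 6 of the 7 were called, beside 75.7% of all genes tested (39.2% higher and 36.4% lower). Between BT549 EV and MDA-MB-231 EV all 7 were called, beside 79.5%, and between BT549 EV and SUM159 EV 6 were, beside 78.4%. All 7 had EV groups that did not overlap in each of these comparisons, as did 86.4%, 88.2% and 87.7% of all genes in turn. In size, however, the RB1 difference between BT549 EV and MDA-MB-231 EV was lower than that of all but 6% of the genes. The CDKN2A and CDKN2B differences were not ranked, since both genes had 0 counts in MDA-MB-231 EV and passed the filter through BT549. Both are among the members called in the comparisons with BT549 EV. Levels of different genes were compared only after division by transcript length, in expected counts per kilobase scaled to 1000000 per library. On that scale HRAS led in MDA-MB-231 EV at 133 ± 4.92 and in SUM159 EV at 126 ± 4.10, above 90.5% and 90.6% of the genes tested. RB1 followed at 17.7 ± 2.30 in MDA-MB-231 EV, and PIK3CA at 17.6 ± 0.284 in SUM159 EV. In BT549 EV CDKN2A led at 2159 ± 0.673, above 99.7% of the genes tested, followed by CDKN2B at 101 ± 2.05 and HRAS at 61.6 ± 1.51, while RB1 was the lowest of the 7 at 3.76 ± 0.566. Per length BRAF stood at 8.41 ± 0.736 in MDA-MB-231 EV, 6.44 ± 0.955 in SUM159 EV and 5.54 ± 0.241 in BT549 EV. MDA-MB-231, the lowest in CPM, was thus the highest per length, while SUM159 stood above BT549 on both scales. This sum gives short transcripts more weight, and BRAF-202, of 1180 bases, had 50 and 59 counts in MDA-MB-231 EV, 13 and 5 in SUM159 EV and 0 and 3 in BT549 EV.

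Genes next to CDKN2A and CDKN2B on chromosome 9 also had few or no counts in MDA-MB-231 and SUM159. Of 21 other protein-coding genes within 1 Mb, many of them interferon genes, 8 had a row and 5 were tested. MTAP, which salvages methylthioadenosine and lies next to CDKN2A, had 0 counts in both MDA-MB-231 EV libraries, 1 and 0 in SUM159 EV, and 3479 and 3560 in BT549 EV, at least 1394-fold and 1283-fold higher in BT549 EV. KLHL9 had 0 and 0, 21 and 32, and 467 and 499 counts in the same order of lines, and HACD4 had 0 and 0, 0 and 1, and 180 and 172. DMRTA1, on the far side of CDKN2B, had 16 and 9 counts in BT549 EV and 0 in the other EV libraries. FOCAD, the farthest of the 5, was detected in all lines, with 14 and 9, 2 and 4, and 171 and 146 counts. A row needs counts in BT549, and HACD4, MTAP and DMRTA1 passed the filter through BT549 alone, so a neighbour at 0 in BT549 could not appear and these levels are given as a description, with no test. CDKN2B-AS1, the antisense RNA ANRIL that overlaps CDKN2A and CDKN2B on the other strand, had 224 and 177 counts in BT549 EV, 0 and 0 in MDA-MB-231 EV and 0 and 1 in SUM159 EV. Whether strand was used in the counting is not given in the sources used here, so overlapping reads of CDKN2B-AS1 and CDKN2B cannot be told apart. DNA was not measured, so a missing gene and a silent gene cannot be told apart.

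Around RB1 on chromosome 13 the neighbours did not share its low level in BT549. All 14 other protein-coding genes within 1 Mb had a row and 12 were tested. ITM2B, just before RB1, had 4484 and 4857 counts in MDA-MB-231 EV and 7905 and 7907 in BT549 EV (log2 difference 1.01), and RCBTB2, which lies within the annotated extent of RB1 on the other strand, had 72 and 72 against 263 and 210 (1.96). The lowest of the 12 in that comparison was SETDB2 at -0.77, against -4.32 for RB1. LPAR6, a lysophosphatidic acid receptor gene that lies within RB1 on the other strand, had 0 counts in MDA-MB-231 EV, 68 and 88 in SUM159 EV and 301 and 295 in BT549 EV. It was at least 118-fold higher in BT549 EV than in MDA-MB-231 EV, so LPAR6 and RB1 had opposite orders across the 3 lines.

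**Figure D2:**
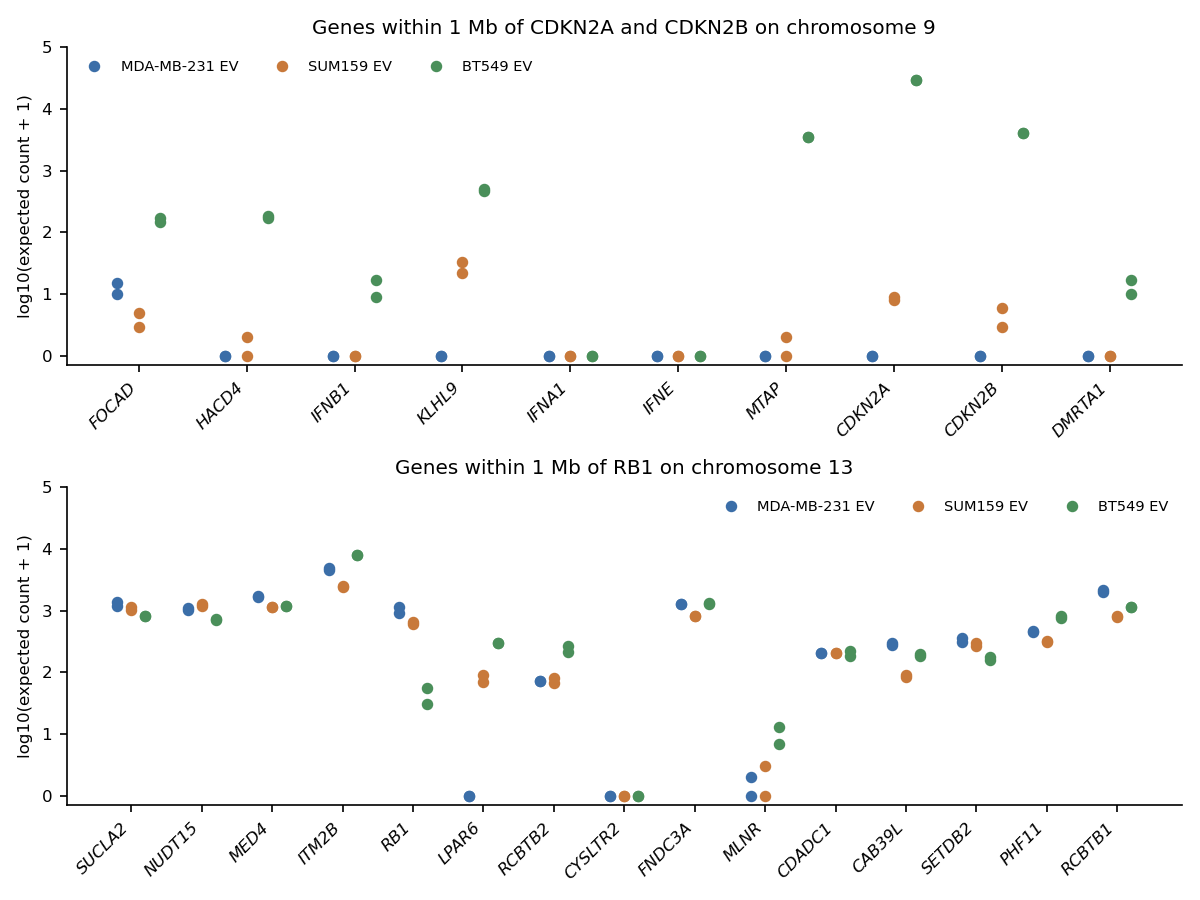
Expected counts in the EV libraries, as log10(count + 1), for genes with a row within 1 Mb of CDKN2A and CDKN2B (top) and of RB1 (bottom), in chromosomal order and not to distance. In the top panel BT549 stands above the other lines at MTAP, CDKN2A and CDKN2B, and in the bottom panel BT549 is low at RB1 but not at its neighbours.

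In MDA-MB-231, BRAF and PIK3CA rose in CPM with TRMT112 KD. These were 2 calls of the 7, both higher, beside 37.7% of all genes. BRAF had 436 and 455 counts in EV and 573 and 504 in KD, a mean of 17.3 ± 0.158 against 21.4 ± 1.52 CPM. This was a log2 change of 0.31 (SE 0.08, adjusted p = 0.00387), and without KD replicate 1 it was 0.24 (adjusted p = 0.0821). Per length the mean went the other way, without a test, from 8.41 ± 0.736 in EV to 6.72 ± 1.59 in KD, with the short BRAF-202 at 50 and 59 counts in EV and 30 and 21 in KD and the long BRAF-204 at 245 and 204 and then 348 and 344. PIK3CA had 604 and 604 counts in EV and 722 and 755 in KD, a log2 change of 0.33 (SE 0.09, adjusted p = 0.00486), and without KD replicate 2 it was 0.28 (adjusted p = 0.0621). HRAS (-0.10, SE 0.05), NF1 (-0.16, SE 0.08) and RB1 (-0.20, SE 0.10) did not pass, with adjusted p of 0.142, 0.138 and 0.145. All 3 passed as lower when scaled by library size alone (adjusted p = 0.00583, 0.0212 and 0.0320), a scaling that moved the median of all genes by -0.09, and RB1 also with the replicate block (0.0369), with the line fitted alone (0.0215) and without EV replicate 1 (0.0424). CDKN2A and CDKN2B had 0 counts in the KD libraries too. The libraries of EV and KD did not overlap for the other 5 members, as for 66% of all genes.

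In SUM159 KD, NF1, RB1 and BRAF fell and HRAS rose. Of the 7, 4 were called, 1 higher and 3 lower, beside 60.1% of all genes. NF1 had 1728 and 1629 counts in EV and 877 and 1085 in KD, and fell from 70.7 ± 3.15 to 38.1 ± 1.60 CPM, by 0.89 on the log2 scale (SE 0.06, adjusted p = 2.08e-11). HRAS had 1837 and 1778 counts in EV and 2850 and 3024 in KD, and rose from 76.2 ± 1.97 to 115 ± 7.62 CPM, a log2 change of 0.59 (SE 0.05, adjusted p = 4.63e-10). Neither gene's groups overlapped. Short genes were higher as a whole, with a median log2 change of 0.23 in the lowest decile of length and -0.05 in the highest. Relative to the median of its own decile, HRAS changed by 0.495. RB1, at 25.1 and 27.7 CPM in EV and 21.2 and 21.2 CPM in KD, had a log2 change of -0.32 (SE 0.12, adjusted p = 0.0206), and BRAF, at 25.4 and 24.6 and then 20.8 and 21.5 CPM, one of -0.24 (SE 0.08, adjusted p = 0.0100). Both of these calls were lost with DESeq2 (adjusted p = 0.38 and 0.0968) and when single libraries were left out, and that of RB1 also with RLE size factors (0.0532) and without RB1-208 (0.0768). For RB1 the adjusted p was then 0.157 (EV replicate 2), 0.0678 (KD replicate 1) and 0.0775 (KD replicate 2), and for BRAF 0.0657 (EV replicate 1) and 0.0553 (KD replicate 1). PIK3CA overlapped between groups, at 51.1 and 51.1 CPM in EV and 46.3 and 53.2 CPM in KD (-0.04, interval of 2 SE from -0.19 to 0.11), and its sign depended on the scaling (0.02 with RLE size factors) and on KD replicate 1 (0.06 without it). CDKN2A had 8 and 7 counts in EV and 18 and 13 in KD (log2 difference 0.92, adjusted p = 0.0560). This difference became a call with RLE size factors (0.0419), a minimum mean of 50 counts (0.0407) and protein-coding transcripts alone (0.0446). Without KD replicate 2 it was 1.25. CDKN2B had 5 and 2 counts in EV and 4 and 10 in KD (adjusted p = 0.249). The groups did not overlap for 5 of the 7, nor for 76.7% of all genes.

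The KD effect itself was compared between the lines as MDA-MB-231 minus SUM159, in the same model. It differed for 4 of the 7, beside 50.9% of all genes. For HRAS the difference was -0.69 (SE 0.07, adjusted p = 2.85e-08), for NF1 0.73 (SE 0.10, adjusted p = 2.82e-06), for BRAF 0.55 (SE 0.11, adjusted p = 2.30e-04) and for PIK3CA 0.36 (SE 0.12, adjusted p = 0.0114). Relative to the median of genes of similar length, the HRAS difference was -0.56. In CPM, BRAF was called in both lines in opposite directions, higher with KD in MDA-MB-231 and lower in SUM159, whereas the mean per length was lower with KD in both, in SUM159 by less than the spread (6.44 ± 0.955 in EV and 5.61 ± 0.136 in KD). The per-length difference was not tested. The PIK3CA difference had an adjusted p of 0.0581 without MDA-MB-231 KD replicate 2 and 0.0668 without SUM159 KD replicate 1. For RB1 the difference was 0.12 (SE 0.16, adjusted p = 0.568), and for CDKN2A and CDKN2B it could not be estimated against 0 counts. TRMT112 itself fell further in MDA-MB-231, by a difference of -0.47 (SE 0.06, adjusted p = 1.83e-07), so the lines also differed in the depth of the knockdown.

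In BT549, NF1, BRAF, PIK3CA, CDKN2A and CDKN2B fell with TRMT112 OE and RB1 rose. These were 6 calls, 1 higher and 5 lower, beside 70.6% of all genes, and EV and OE did not overlap for any of the 7, as for 82.9% of all genes. NF1 had 1323 and 1465 counts in EV and 390 and 413 in OE, and fell from 64.2 ± 5.13 to 18.8 ± 1.05 CPM, by 1.77 on the log2 scale (SE 0.07, adjusted p = 4.16e-16). BRAF had 493 and 502 counts in EV and 263 and 280 in OE, a log2 change of -0.85 (SE 0.09, adjusted p = 8.14e-09). PIK3CA had 740 and 831 counts in EV and 431 and 512 in OE, a log2 change of -0.71 (SE 0.09, adjusted p = 2.25e-07). These 3 are long mRNAs, in the highest decile of length among the genes tested, and in this comparison longer genes were lower as a whole, with a median log2 change of 0.35 in the lowest decile of length and -0.16 in the highest. Relative to the median of their own decile, NF1 changed by -1.61, BRAF by -0.69 and PIK3CA by -0.55. HRAS, a short mRNA, had 948 and 900 counts in EV and 965 and 1001 in OE and did not pass (0.11, adjusted p = 0.108), though it did with a minimum mean of 50 counts (0.0419), and relative to its length decile it was at -0.05.

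CDKN2A fell in BT549 OE by 0.28 on the log2 scale (SE 0.03, adjusted p = 2.70e-08), from 1355 and 1344 CPM in EV to 1137 and 1081 CPM in OE. CDKN2B fell by 0.27 (SE 0.05, adjusted p = 3.47e-05), from 187 and 191 CPM to 160 and 154 CPM. Relative to genes of similar length the values were -0.64 and -0.14. CDKN2A transcripts split by first exon, however, moved apart. Those with an exon that overlaps exon 1α and none that overlaps exon 1β are led by CDKN2A-201, which encodes p16INK4a. This set went from 899 and 890 CPM to 588 and 561 CPM, a log2 change of -0.64 (SE 0.03, adjusted p = 1.79e-13). Those that overlap exon 1β and not exon 1α are led by CDKN2A-214, which encodes ARF. That set went from 452 and 448 CPM to 540 and 511 CPM, a log2 change of 0.22 (SE 0.04, adjusted p = 1.03e-05). Both values were below the median of 0.35 of the lowest length decile, which holds CDKN2A, so relative to short genes exon 1β was lower too, while the gap between the first exons does not depend on that median. Exon 1α transcripts thus made up 66.3% and 66.2% of the CDKN2A counts of the EV libraries against 51.8% and 51.9% for OE, with no overlap between groups, and exon 1β transcripts 33.3% and 33.4% against 47.5% and 47.3%. The leading transcript of each set showed the same split, with CDKN2A-201 (p16INK4a) at -0.64 (SE 0.12, adjusted p = 0.00629) and CDKN2A-214 (ARF) at 0.32 (SE 0.05, adjusted p = 0.00422). The exon 1β set holds 2 transcripts and had 9868 and 9682 counts in EV and 11652 and 10801 in OE. CDKN2A-214 had 8548 and 8384 of these in EV and 10627 and 9937 in OE, so the other transcript had fewer in OE. The coding of the other transcripts in both sets was not checked. The split by first exon was added after the data were seen, and reads from the shared exons were divided by the authors' counting. In SUM159, transcripts with exon 1α had 3 and 4 counts in EV and 18 and 11 in KD, and those with exon 1β 5 and 3 in EV and 0 and 2 in KD, which are too few to divide with confidence.

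RB1 rose in BT549 OE from its low level. It had 30 and 55 counts in EV and 96 and 150 in OE, so the groups did not overlap but replicates differed by more than 1.5 times, and the log2 change was 1.56 (SE 0.25, adjusted p = 6.24e-06). Its size depended on single libraries, at 1.17 without EV replicate 1, 2.06 without EV replicate 2 and 1.18 without OE replicate 2, with the call kept in each. RB1-208 had 30 and 33 counts in EV and 77 and 88 in OE, and RB1-201 had 0 and 13 in EV and 3 and 34 in OE. Without RB1-208 the log2 change was 1.83 (SE 0.56, adjusted p = 0.00605). At its highest, RB1 in BT549 OE reached 7.10 CPM, against 33.7 CPM in the lowest MDA-MB-231 library.

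**Figure D3:**
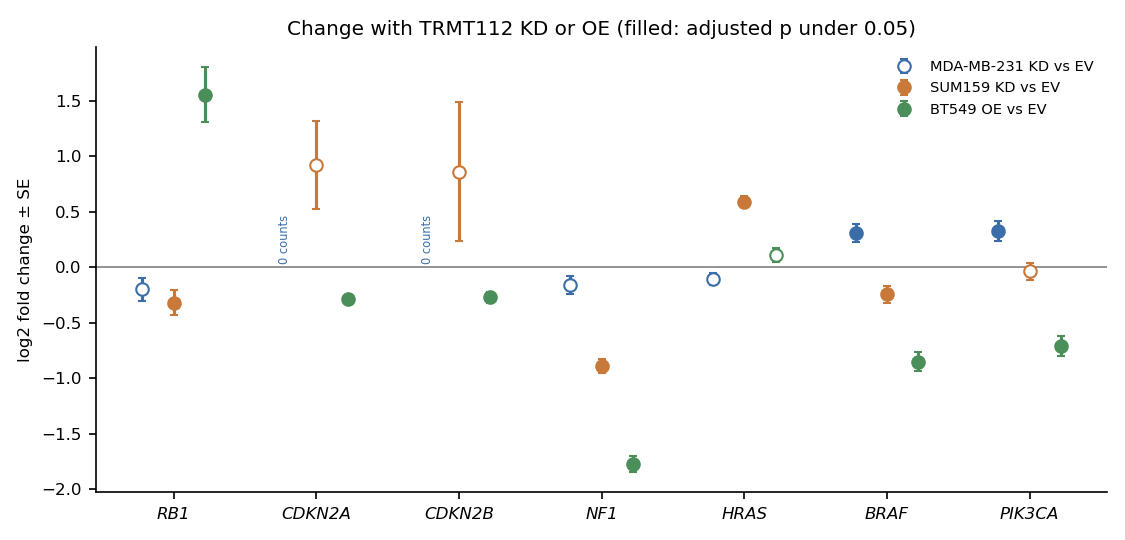
Log2 fold change ± SE of the 7 genes upon KD of TRMT112 (MDA-MB-231, SUM159) or OE (BT549), from the edgeR model of all 12 libraries, filled where the adjusted p was under 0.05. NF1 was the lowest point in SUM159 and in BT549, at -0.89 and -1.77, and RB1 the highest in BT549, at 1.56.

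**Figure D4:**
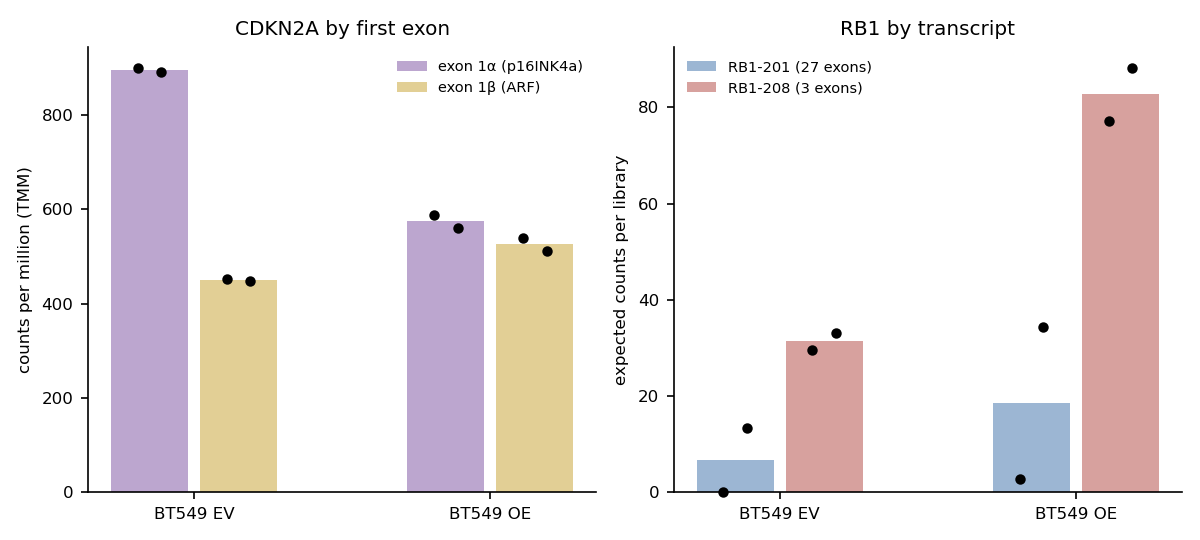
Left, CPM of CDKN2A transcripts grouped by first exon in BT549 EV and OE, and right, expected counts of RB1-201 and RB1-208 in the same libraries, with bars for means and points for the 2 libraries. Exon 1α went from a mean of 894 to 575 CPM and exon 1β from 450 to 526 CPM, while RB1-208 exceeded RB1-201 in all 4 libraries.

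The same test was run on single transcripts of the members. Of the 45 member transcripts tested, 0 were called with KD in MDA-MB-231, 6 in SUM159 and 8 with OE in BT549, beside 3.7%, 13.2% and 22.1% of all transcripts tested. For the 0 in MDA-MB-231, edgeR's test gave 3 with an unadjusted p under 0.05, and RLE size factors also gave 0 calls, so the gene-level calls of BRAF and PIK3CA had no called transcript there. Of the 6 in SUM159, 2 were CDKN2A-201 (0 and 4 counts in EV, 18 and 11 in KD) and CDKN2A-214 (5 and 3 in EV, 0 and 0 in KD), at counts too low to divide with confidence. NF1-202, a full-length form of 58 exons, fell by 1.19 on the log2 scale in SUM159 KD (SE 0.25, adjusted p = 0.00866) and had a log2 change of -2.37 in BT549 OE (SE 0.26, adjusted p = 7.52e-05), and NF1-201, which has 57 exons, fell by 1.78 in BT549 OE (SE 0.35, adjusted p = 0.00422). HRAS-201, which held 66.1% to 74.9% of the HRAS counts of each group, rose by 0.41 in SUM159 KD (SE 0.08, adjusted p = 0.00816). BRAF-204 and PIK3CA-201, the leading transcripts of their genes, had log2 changes of -1.02 (SE 0.19, adjusted p = 0.00334) and -0.91 (SE 0.17, adjusted p = 0.00342) in BT549 OE.

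EVI2A and EVI2B, which lie within NF1 on the other strand, fell with NF1 in BT549 OE but had another order across the EV groups. EVI2A had 566 and 596 counts in MDA-MB-231 EV, 38 and 30 in SUM159 EV, 185 and 190 in BT549 EV, and 3 and 3 in BT549 OE, a log2 change of -5.89 with OE. EVI2B had 247 and 258, 11 and 14, 38 and 44, and 0 and 0 counts in these groups, at least 13.4-fold lower in BT549 OE than in EV. MDA-MB-231 EV was thus the highest of the EV groups for both and the lowest for NF1. In SUM159 KD, where NF1 fell, EVI2A did not pass (0.12, adjusted p = 0.691). EVI2B fell there at few counts, from 11 and 14 to 6 and 2, a log2 change of -1.72 (adjusted p = 0.00818). OMG, also within NF1, had at most 1 count in a library.

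The wider routes around these genes were described with 5 lists, and their counts are set beside those of all genes tested. HRAS, BRAF and NF1 are counted in the RAS and MAPK list and PIK3CA in the PI3K and AKT list. CDKN2A, CDKN2B and RB1 are counted in the INK4 and RB list. Values without these members are given after each of the 3 lists. In MDA-MB-231 KD 21.2% of all genes were called higher and 16.5% lower, in SUM159 KD 28.6% and 31.4%, and in BT549 OE 35.6% and 35% respectively. Of 26 genes of the RAS and MAPK pathway, 15 were higher and 4 lower in MDA-MB-231 KD (median log2 change 0.14, against 0.00 over all genes), 11 and 10 in SUM159 KD (-0.04, against 0.00), and 7 and 14 in BT549 OE (-0.12, against 0.02). Among the 23 that are not members, 14 were higher and 4 lower in MDA-MB-231 KD (median 0.16). The counts for these 23 were 10 and 8 in SUM159 KD (-0.004) and 7 and 12 in BT549 OE (-0.11). In MDA-MB-231 KD the adaptor GRB2 changed by 0.37 and the scaffold KSR1 by 0.84, and in SUM159 KD the kinase gene MAPK3 by 0.74. In BT549 OE RRAS2, a RAS-related GTPase, changed by 1.61 and GRB2 by -0.92. Among 16 feedback regulators and targets of MAPK signaling, 3 were higher and 8 lower in MDA-MB-231 KD (median -0.15), 5 and 9 in SUM159 KD (-0.50), and 4 and 10 in BT549 OE (-1.03). The immediate early gene EGR1 changed by -2.49 and CCND1 by 0.53 in MDA-MB-231 KD, FOSL1 by 0.92 and ETV5 by -1.26 in SUM159 KD, and PHLDA1 by -2.49 and the phosphatase gene DUSP4 by -2.73 in BT549 OE. Between EV groups, 13 of these 16 were lower in SUM159 than in MDA-MB-231 and the other 3 were not called (median -1.63, against 0.03 over all genes).

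PI3K and AKT genes, 28 in all, were higher for 16 and lower for 2 in MDA-MB-231 KD (median 0.24), 12 and 6 in SUM159 KD (0.06), and 12 and 13 in BT549 OE (0.03). Without PIK3CA the counts were 15 and 2 (0.23), 12 and 6 (0.10), and 12 and 12 (0.05) of 27 genes, in the same order. PIK3CD, another catalytic subunit, changed by 0.74 in MDA-MB-231 KD, and the adaptor IRS1 by -0.38 there and by 1.51 in SUM159 KD, where the GTPase RHEB changed by 0.61. The regulatory subunit genes PIK3R3 and PIK3R1 changed by -1.43 and -1.35 in BT549 OE. In the INK4 and RB list of 25 genes, 4 were higher and 5 lower in MDA-MB-231 KD (median 0.00), 11 and 8 in SUM159 KD (0.16), and 8 and 13 in BT549 OE (-0.15). For the 22 that are not members the counts were 4 and 5 (-0.001), 11 and 7 (0.15), and 7 and 11 (-0.09), in the same order. CDKN2C, which encodes the CDK inhibitor p18INK4c, changed by 0.43 in MDA-MB-231 KD and by 1.78 in SUM159 KD, where CDK6 changed by 1.02. CCND1 and CDKN1A changed by -2.46 and -1.67 in BT549 OE. Of 30 E2F targets, 3 were higher and 19 lower in MDA-MB-231 KD (median -0.20), 4 and 19 in SUM159 KD (-0.30), and 18 and 8 in BT549 OE (0.33). The replication licensing genes MCM7 and MCM3 changed by -0.47 and -0.60 in MDA-MB-231 KD, and MCM6 and the cyclin gene CCNA2 by -1.50 and -1.02 in SUM159 KD. In BT549 OE TYMS, which encodes thymidylate synthase, changed by 0.84, and CCNA2 by -1.22, against the direction of most of its list. The genes named per list and comparison were those with the smallest p, so their sizes are not typical of their lists, and CCND1 belongs to 2 lists.

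**Figure D5:**
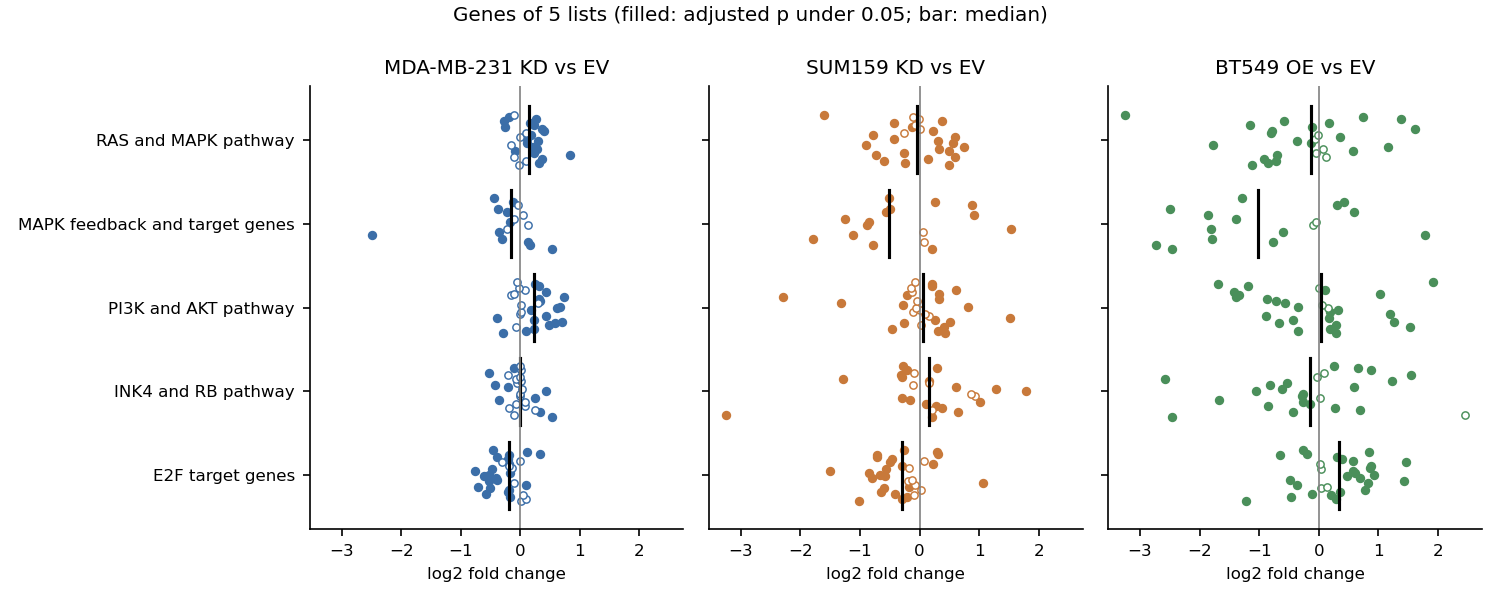
Log2 fold change of each gene of the 5 lists, members included, with TRMT112 KD in MDA-MB-231 (left) and SUM159 (middle) and with OE in BT549 (right), filled where the adjusted p was under 0.05, with the median of each list as a bar. The E2F target median lies at -0.20 and -0.30 in the KD panels and at 0.33 in the OE panel.

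The genes whose pattern across the 12 libraries was most like each member were found by the root mean square difference of log2 CPM centred on each gene's own mean, over the 12590 genes whose mean reached 50 counts. This is a description with no test, and the points share libraries. For HRAS they were AKT1 (0.11), APIP (0.11) and LAMTOR5 (0.12), and for BRAF TOX4 (0.11), MAD2L1 (0.11) and WDR5 (0.12). PIK3CA was nearest to RXRA, KNSTRN and PRKAG1 (0.12, 0.12 and 0.13), and NF1 to GTPBP2, ARHGEF39 and LENG9 (0.23, 0.23 and 0.26). The nearest to RB1 were LRP5 (0.38), CYTOR (0.41) and ZBED5-AS1 (0.41), which were also lowest in BT549 EV. CDKN2B was nearest to RSPO2 (0.64), its neighbour MTAP (0.65) and AUTS2 (0.71), and CDKN2A to RSPO2 (1.06), CDKN2B (1.22) and SPON2 (1.27). The INK4 genes thus had the largest differences from their matches of the 7. This measure grows with the range of a gene, and theirs runs from 0 counts in MDA-MB-231 to the level in BT549 through which they passed the filter.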

How the data were processed

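Polysome-associated RNA of 12 libraries was sequenced, 2 per group, with groups taken from the sample labels. The labels name a poly(A) kit and the methods a stranded kit for total RNA depleted of rRNA. Per the methods and the submitters' processing notes, the authors used Trimmomatic for trimming, HISAT2 for alignment to GRCh38, SAMtools for removal of duplicates and Partek. The deposited values are expected counts, 1 row per Ensembl transcript, not normalized. In 5.08% of rows the other columns than BT549 hold a question mark in place of an expected count, here read as 0. The deposited values of BT549 thus differ in form from those of the other lines, which cannot be told apart from the line itself. The counting tool and strand setting are not given in the sources used here.

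Transcripts were matched by ID without version to GENCODE 44 (79.6% of rows, and at least 99.25% of counts), summed per symbol, rounded, filtered with filterByExpr and tested in edgeR 4.0.16 (R 4.3.3) with TMM and the quasi-likelihood test on 6 group means (6 residual degrees of freedom), called at an adjusted p under 0.05 (Benjamini-Hochberg, 16538 genes). DESeq2 1.42.0 was an alternative. The test was tried on simulated data first, with a larger spread between libraries than was fitted here. Only genes well counted in the control were changed there, so it does not bear on genes with few counts. The limit of 3 counts covers counting error only, and reads carry no molecular identifiers. The SE was taken as the absolute log2 change divided by the square root of the F of the quasi-likelihood test, and the intervals of 2 SE use it. That F takes in the spread between libraries. For a large difference from a group with few counts this SE can be too small, as for RB1, CDKN2A and CDKN2B between BT549 EV and other lines. Nothing in the labels says that the 2 libraries of a group came from separate cultures, so p-values measure the spread between these libraries, which may be technical.

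The 7 genes and the lists were chosen with earlier results of these data known. Named besides them were transcripts with at least 10% of a member's counts in any group, the 2 genes of each list with the smallest p in each KD or OE comparison, genes overlapping RB1, CDKN2A, CDKN2B or NF1 or within 1 Mb of RB1 or CDKN2A and CDKN2B, and the 3 genes most alike in pattern. Of these the text gives those with values that bear on a member, and 1 of the list genes is not reported here. Correlation of same-numbered libraries' deviations was 0.02 in MDA-MB-231, -0.025 in SUM159 and 0.004 in BT549, so the numbers were not taken to pair them.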

Additional observations from a re-analysis of the deposited data

Results flagged for a closer look

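The effect of TRMT112 KD differed between MDA-MB-231 and SUM159, by the test of the difference itself, for 4 of the 7 genes, and each was singled out for that reason. On the log2 scale, as MDA-MB-231 minus SUM159, the difference was 0.55 for BRAF, -0.69 for HRAS, 0.73 for NF1 and 0.36 for PIK3CA. In CPM, BRAF was higher with KD in both MDA-MB-231 libraries and lower in both SUM159 libraries, but divided by length it was lower with KD in the mean of both lines, which was not tested. For all genes tested, 50.9% differed by the same test. The knockdown of TRMT112 was deeper in MDA-MB-231, and its part in these differences was not tested.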

How the results depend on the processing

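The numbers of members called kept within 1.5 times under RLE size factors, other count filters, protein-coding transcripts alone, leaving out marked transcripts and fitting each line alone, though with RLE size factors the SUM159 KD calls lost RB1 and gained CDKN2A. A minimum mean of 50 counts and protein-coding transcripts alone also gained CDKN2A there. No called log2 change turned its sign. Among those not called, PIK3CA in SUM159 KD turned from -0.04 to 0.02 with RLE size factors or DESeq2, to 0.06 without SUM159 KD replicate 1 and to 0.01 relative to its length decile. HRAS turned to -0.05 in BT549 OE and to -0.02 between SUM159 EV and MDA-MB-231 EV relative to its length decile, and the RB1 difference of KD effects to -0.01 without MDA-MB-231 EV replicate 1. For MDA-MB-231 KD, library size alone gave 5 calls in place of 2, and for SUM159 KD, DESeq2 gave 2 in place of 4. Leaving out each library in turn gave 1 to 3 calls in MDA-MB-231 KD, 2 to 4 in SUM159 KD, 6 to 6 in BT549 OE, 5 to 7 between SUM159 EV and MDA-MB-231 EV, 7 to 7 between BT549 EV and MDA-MB-231 EV, 5 to 6 between BT549 EV and SUM159 EV, and 3 to 4 for the difference of KD effects. The cause was not tested. Per length, HRAS exceeded PIK3CA in EV by 14.35 times in MDA-MB-231, 7.135 in SUM159 and 5.574 in BT549, and without division by length by 3.02, 1.49 and 1.18. Library size alone shifted the median of all genes by -0.32 between BT549 EV and MDA-MB-231 EV, by -0.21 between BT549 EV and SUM159 EV and by -0.10 between SUM159 EV and MDA-MB-231 EV, and turned the calls in MDA-MB-231 KD from 3505 higher and 2735 lower to 2363 and 4082. The replicate block added RB1 in MDA-MB-231 KD (log2 change -0.19, adjusted p = 0.0369) and changed no other member's call. With 2 libraries per group, single calls near the threshold rest on single libraries, as given beside them.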
